A study of Caenorhabditis elegans with 4 samples.

Results

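The 33 proteasome subunit genes examined here are those whose WormBase symbol begins with pas-, pbs-, rpt- or rpn-, out of 20392 genes in the count table. The proteasome is the large protease that degrades proteins tagged with chains of ubiquitin. Its 20S core is a barrel of stacked alpha rings (pas- genes) and beta rings (pbs- genes), and the proteolytic sites lie on the inside of the beta rings. The 19S cap (rpt- and rpn- genes) docks on the barrel, binds the ubiquitin chain, removes it, unfolds the substrate with a ring of ATPases and feeds it into the core. The members comprised 14 core genes, 7 of the alpha and 7 of the beta rings, and 19 cap genes. Of the cap genes, 6 encode ATPases of the base, 4 other subunits of the base (rpn-1, rpn-2, rpn-10 and rpn-13), and 9 belong to the lid.

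The experiment asked which RNAs co-precipitate with LIN-41 of C. elegans (here CeLIN41), an RNA-binding protein of the TRIM-NHL family. Young adult whole worms of the genotype lin-41(rrr3), rescued by a single-copy transgene that expresses FLAG-GFP-LIN-41 from the lin-41 promoter, with the lin-41 3′UTR and an unc-119(+) marker, were used for all 4 libraries. For each of 2 biological replicates an RNA-seq library was made from the lysate (input) and one from the RNA bound to anti-FLAG beads (IP). Input and IP thus share the genotype, the transgene and the lysate, and no IP from worms without the tagged protein was analysed here, so RNA held by CeLIN41 and RNA held by the beads cannot be told apart. The tagged protein is made where the lin-41 promoter is active. The libraries held between 33455857 and 40743247 counts.

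Whole-worm material was apparent from the markers. All 8 germ line and oocyte genes on the marker list were detected, and their summed level was 2748 and 3106 CPM (counts scaled to a common library size, here with the trimmed mean of M-values, TMM) in the inputs and 6944 and 7015 CPM in the IPs, with 7 enriched and 1 (glh-1) depleted by the edgeR test. Of the 7, pgl-1 and puf-5 had a negative mean after quantile normalization (−0.28 and −0.09 log2 units). Muscle genes summed to 1179 and 1038 CPM in the inputs and 491 and 417 CPM in the IPs, with 4 of 5 depleted and unc-54 called enriched (log2 fold change 0.32), although its quantile-normalized values gave −0.70 and −0.22 in the replicates. Intestinal genes fell in 6 of 6 cases by the edgeR test, from 2738 and 2048 CPM to 1392 and 1140 CPM in sum. Among them ges-1 was scarce (0.84 to 2.26 CPM), and its quantile-normalized values gave −0.86 and 0.16 in the replicates. Of 5 neuronal genes, 2 were enriched and 1 was depleted, and the 3 tested hypodermal genes had log2 fold changes from −0.50 to 0.43, without a call. Sperm genes (msp-) reached at most 31.7 CPM in sum, with 10 of the 12 tested genes (30 on the list) depleted and 0 enriched. Input and IP of a replicate came from the same lysate, so these values do not compare numbers of cells. The part that the tissue of origin plays in the values of the proteasome genes was not tested.

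Proteasome mRNAs were, with few exceptions, scarcer in the CeLIN41 IP than in the input. Of the 33 genes, 30 were depleted, 2 were enriched (rpn-6.2 and rpn-13) and 1 (rpn-11, the deubiquitinase of the lid) passed the test in neither direction (edgeR quasi-likelihood test, Benjamini-Hochberg adjusted p below 0.05 over 14029 tested genes, all 33 members among them). The background was high: 35.4% of all tested genes were depleted and 32.9% enriched. Among the 703 tested genes that lay in the input range of the members other than rpn-6.2 (normalized log2 value 12.87 to 14.51), 48.9% were depleted and 40% enriched. The median log2 fold change of IP over input was −0.78 for the proteasome genes, −0.14 for all tested genes and −0.20 for the 703 genes. In 31 of 33 members the CPM of both IPs lay below both inputs, in 2 members above both inputs, and in 0 members did the groups overlap. Over all 14029 tested genes the IPs lay below the inputs in 6123 (43.6%) and above them in 5272, and the groups overlapped in 2634. Among the 703 genes these counts were 358, 298 and 47.

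A second measure was the IP enrichment, the quantile-normalized log2 value of an IP minus that of the input from the same lysate. Its median was −1.57 over the 33 genes, against −0.11 for all tested genes and −0.99 for the 703 genes in their input range. By this measure 31 members lay below the median of the 703 genes, and 28 fell into the lowest 10% of all tested genes. The remaining 5 were rpt-5, rpt-6, rpn-11, rpn-13 and rpn-6.2. The lower quartile of the 703 genes was −1.59, and a value of −1.40 (rpn-8) already lay in that lowest 10%. Many other genes of this input level thus lay there too. The enrichments of the 32 members other than rpn-6.2 correlated between replicates with r = 0.97 (Spearman's rho = 0.92), a description across genes that share the libraries and their normalization. The largest SD between replicates of any member was 0.22 log2 units, for pbs-4. As fractions of all counts, the 33 genes took 1.32% and 1.37% of the inputs and 0.442% and 0.387% of the IPs. With library size as the only scaling, the median log2 fold change of all tested genes was itself −1.07, so part of this drop was shared by the typical gene.

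**Figure D1:**
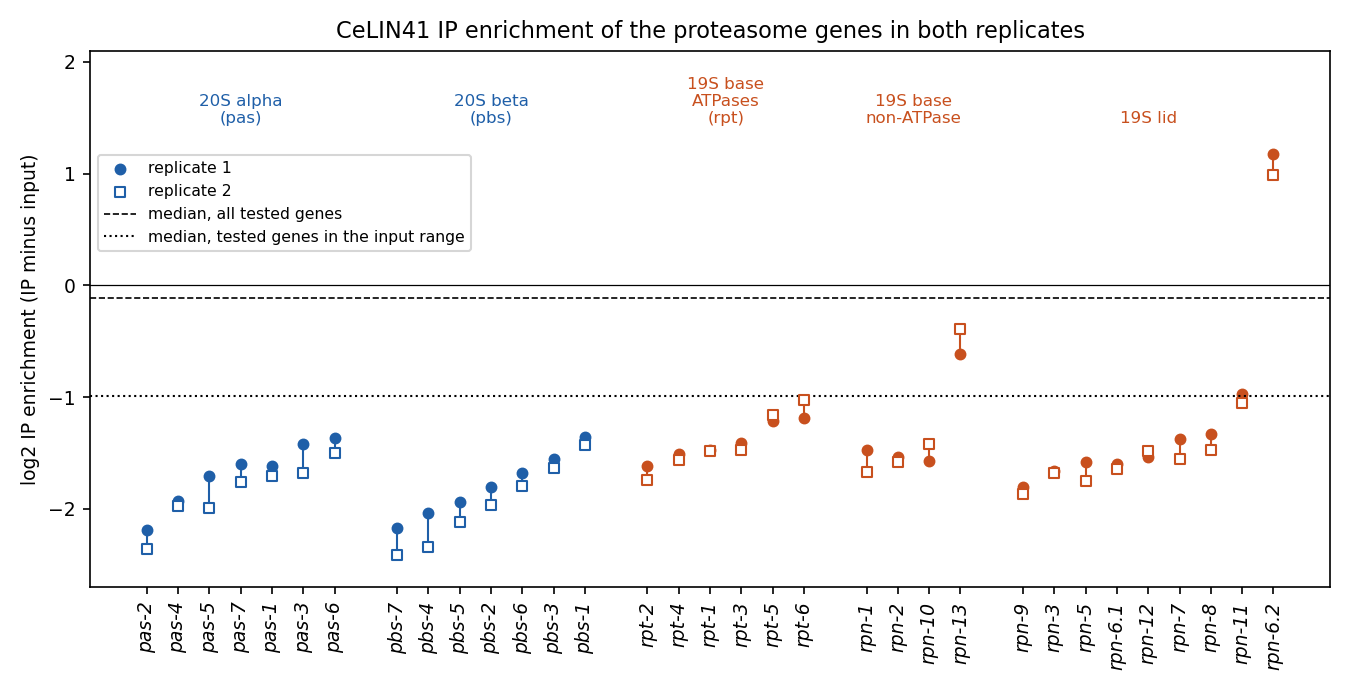
Log2 IP enrichment (IP minus input, vertical axis) of each proteasome gene in replicate 1 (filled circles) and replicate 2 (open squares), with 20S core genes in blue and 19S cap genes in orange, ordered within each group by the mean. The 14 core genes lie between −2.29 and −1.39 on average, rpn-13 and rpn-6.2 stand above the other cap genes, and the lines give the medians of all tested genes (−0.11) and of tested genes in the input range of the members (−0.99).

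All 14 core genes were depleted, and 0 were enriched (0 at an unadjusted p below 0.05 and 0 by DESeq2). Their median log2 fold change was −1.002 and their median IP enrichment −1.79, with −1.69 in replicate 1 and −1.88 in replicate 2. The alpha ring genes had a median fold change of −0.90 and the beta ring genes of −1.15 on the log2 scale. All 14 had a lower enrichment in replicate 2 than in replicate 1, as had 547 of the 703 tested genes in the members' input range and 7419 of all 14029 tested genes.

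The lowest of the beta ring genes was pbs-7, a subunit without a proteolytic site, at 348 and 392 CPM in the inputs and 133 and 121 CPM in the IPs. Its log2 fold change was −1.54 (SE 0.12, adjusted p = 2.19e-36), so that its level in the inputs was 2.91-fold that in the IPs. Both IPs lay far below both inputs, with no overlap. Beside it, pbs-4, likewise a non-catalytic subunit of the beta ring, was at 275 and 328 CPM in the inputs and 112 and 104 CPM in the IPs, a log2 fold change of −1.47 (SE 0.12, adjusted p = 6.05e-36). In the WBcel235 annotation pbs-7 shares 70 exon bases with K07A12.5 on the same strand, a gene with 100 to 218 counts in each library.

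The genes of the catalytic subunits differed in the extent of depletion. The gene pbs-5, which encodes the subunit with chymotrypsin-like activity, was at 230 and 264 CPM in the inputs and 102 and 96.4 CPM in the IPs (log2 fold change −1.31, SE 0.11, adjusted p = 2.13e-30). The gene pbs-2, for the trypsin-like subunit, was at 267 and 299 CPM in the inputs and 130 and 125 CPM in the IPs (−1.15, SE 0.11, adjusted p = 9.21e-23). Thus pbs-2 lay in the middle of the core. The gene pbs-1, for the caspase-like subunit, was the least depleted of the core, at 292 and 321 CPM in the inputs and 201 and 207 CPM in the IPs (−0.58, SE 0.12, adjusted p = 2.09e-06). Its IPs were still well below its inputs. Also near the top of the core stood pbs-3, a non-catalytic subunit, with 303 and 336 CPM in the inputs and 187 and 186 CPM in the IPs (−0.78).

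In the alpha ring, whose subunits form the gate of the barrel, pas-2 was lowest, at 342 and 376 CPM in the inputs and 129 and 119.01 CPM in the IPs (log2 fold change −1.53, SE 0.12, adjusted p = 1.56e-36). Its values were close to those of pbs-7 in each of the 4 libraries. At the other end, pas-6 was at 291 and 316 CPM in the inputs and 199 and 191 CPM in the IPs (−0.64, SE 0.12, adjusted p = 1.81e-07). The gene pas-3 stood at 423 and 484 CPM in the inputs and 280 and 264 CPM in the IPs (−0.73, SE 0.13, adjusted p = 2.78e-08). The IPs lay below the inputs without overlap in both genes. The remaining core genes, pas-1, pas-4, pas-5, pas-7 and pbs-6, were depleted with log2 fold changes from −1.18 (pas-4) to −0.84 (pas-1). In the core no call was lost in any alternative fit, and the largest adjusted p was 0.0164, for pbs-1 without Input replicate 2.

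**Figure D2:**
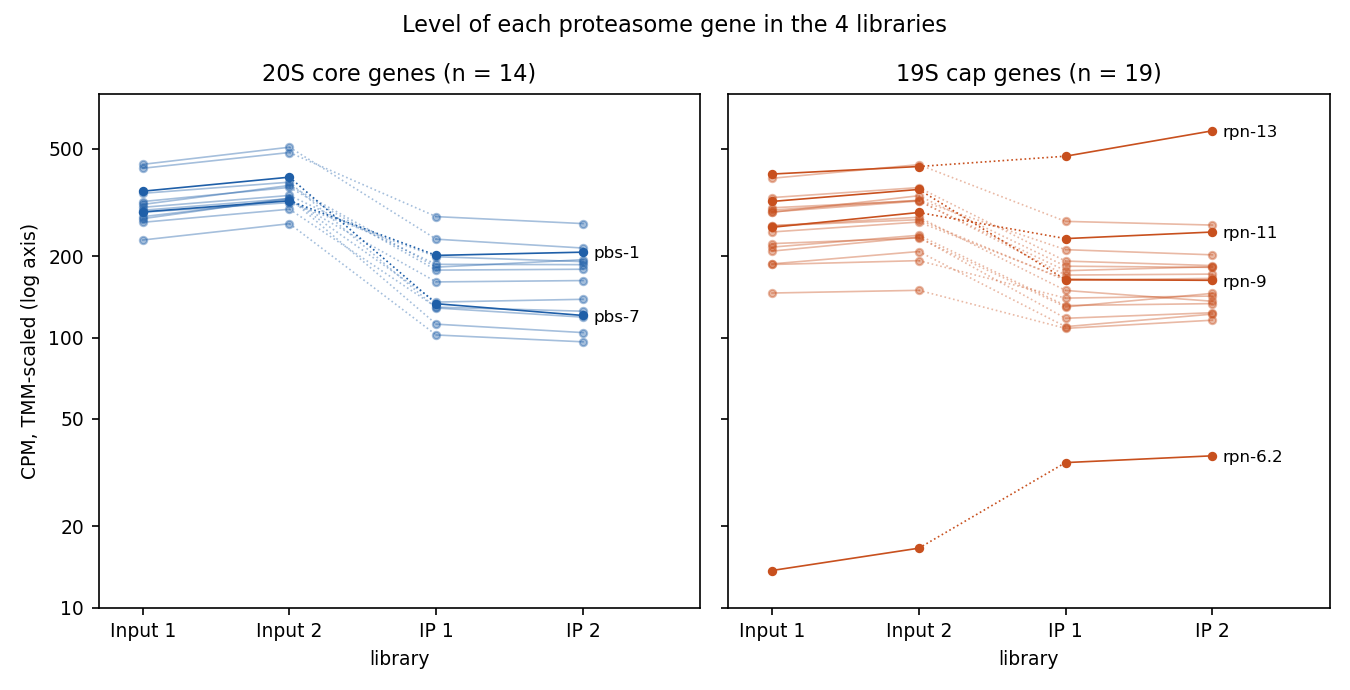
TMM-scaled CPM (log axis) of each of the 14 core genes (left) and 19 cap genes (right) in the 2 input and the 2 IP libraries, each line being a gene and dotted segments joining inputs to IPs. All core genes and 17 cap genes drop from input to IP, pbs-7 among the most and pbs-1 among the least in the core, whereas rpn-13 and rpn-6.2 are above their inputs in both IPs.

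Cap genes had a median closer to 0 than core genes, and rpn-6.2 and rpn-13 stood apart from the other cap genes. The middle part of the cap, from the lower to the upper quartile of IP enrichment, ran from −1.60 to −1.29, and that of the core from −2.01 to −1.61. Of 19, 16 were depleted, 2 enriched and 1 neither, with a median log2 fold change of −0.73 and a median IP enrichment of −1.49 (−1.48 in replicate 1 and −1.49 in replicate 2). All 6 ATPase genes were depleted, with a median fold change of −0.67 on the log2 scale. Of the other base subunits 3 were depleted and 1 enriched, and of the lid genes 7 were depleted, 1 enriched and 1 neither.

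Among the ATPases, rpt-2, whose product helps to open the gate of the core in yeast, was lowest at 330 and 359 CPM in the inputs and 192 and 185 CPM in the IPs (log2 fold change −0.87, SE 0.12, adjusted p = 1.57e-12). The least depleted was rpt-6, at 146 and 150 CPM in the inputs and 108 and 116 CPM in the IPs (−0.40, SE 0.11, adjusted p = 0.000302). Their IPs lay below their inputs without overlap, although the distance was small for rpt-6. The other ATPase genes, rpt-1, rpt-3, rpt-4 and rpt-5, had log2 fold changes from −0.78 (rpt-4) to −0.42 (rpt-5). The annotation places rpt-4 across nfyc-1 on the opposite strand, with 1011 bases shared and 0 bases of exon shared. Another opposite-strand gene, rpoa-49 (log2 fold change 0.81), shares 1177 bases with rpt-4, of which 103 are exon bases of both. In nfyc-1 the counts rose from 3360 and 4420 for the inputs to 120240 and 145941 for the IPs, while rpt-4 itself fell from 10316 and 12438 to 4034 and 3657 counts. The libraries were stranded, but the sources used here do not say whether strand was used in counting, so the part of opposite-strand reads in the counts of rpt-4 was not tested.

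By log2 fold change with TMM scaling the ubiquitin receptors of the base did not share a direction, whereas their IP enrichments were all negative. The gene rpn-10 was at 223 and 234 CPM in the inputs and 130 and 146 CPM in the IPs (log2 fold change −0.73, SE 0.11, adjusted p = 2.12e-10). The scaffold and receptor gene rpn-1 was at 291 and 335 CPM in the inputs and 184 and 182 CPM in the IPs (−0.77, SE 0.12, adjusted p = 2.04e-10). Both were clearly lower in the IPs, as was rpn-2, the other large scaffold of the base (−0.76).

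The receptor gene rpn-13, in contrast, was at 403 and 429 CPM in the inputs and 469 and 582 CPM in the IPs (log2 fold change 0.33, SE 0.13, adjusted p = 0.0228 with the edgeR test). Both IPs lay above both inputs, replicate 2 by more than replicate 1. This call did not hold in every edgeR fit. With all libraries but no replicate block the adjusted p was 0.0947. The call was also lost with no filter on counts and with at least 10 counts in every library. Fits that left out a library had no replicate block either, so they cannot show a dependence on single libraries. Without IP replicate 2 the log2 fold change was 0.14. The direction depended on the scaling, as it did for 106 of the 281 genes called enriched in the members' input range, whose IP enrichment was negative. After quantile normalization rpn-13 had a negative IP enrichment in both replicates (−0.62 and −0.39), and with library size as the only scaling its log2 fold change was −0.60. Its rank was less affected, since it lay above 31 of the other members by either measure. The gene model counted for rpn-13 was 2721 bases long, against 1494 exon bases in the WBcel235 annotation. A ratio of 1.82 or more was found for 177 of 13830 tested genes with annotated exons (1.28%), and pbs-4 came next among the members with 1.28. The neighbour of rpn-13 on the same strand, let-767, went from 5744 and 5745 counts (inputs) to 8570 and 10136 counts (IPs; log2 fold change 1.48, SE 0.12). What part reads from the surplus 1227 bases played in the counts of rpn-13 was not tested.

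In the lid, rpn-9 was lowest, at 319 and 353 CPM in the inputs and 164 and 163 CPM in the IPs (log2 fold change −1.04, SE 0.12, adjusted p = 1.10e-17). It was the cap gene closest to the core. Next to it, rpn-5 was at 259 and 279 CPM in the inputs and 149 and 136 CPM in the IPs (−0.91, SE 0.11, adjusted p = 5.29e-15). The gene rpn-3 was at 302 and 321 CPM in the inputs and 170 and 172 CPM in the IPs (−0.86, SE 0.12, adjusted p = 6.83e-13). In these structural subunits of the lid both IPs lay below both inputs. The genes rpn-7, rpn-8 and rpn-12 were depleted with log2 fold changes between −0.77 (rpn-12) and −0.58 (rpn-8). The annotation gives rpn-7 394 exon bases in common with nemt-1 on the opposite strand, a gene with 5 to 13 counts in any library.

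The gene rpn-11, whose product cuts the ubiquitin chain from the substrate, was at 256 and 290 CPM in the inputs and 232 and 246 CPM in the IPs. Both IPs were below both inputs, by little, and the log2 fold change of −0.19 (SE 0.12) did not pass the edgeR test (adjusted p = 0.143). It passed when genes with under 10 counts in any library were left out (−0.28, adjusted p = 0.0205) and with library size only (−1.12). Its IP enrichment of −1.02 was close to the median of −0.99 of the tested genes in the members' input range.

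The paralogs rpn-6.1 and rpn-6.2 went in opposite directions. The gene rpn-6.1 encodes the lid subunit that clamps the cap to the core, and its overexpression raises proteasome activity in worms. It was at 209 and 235.3 CPM in the inputs and 118 and 124 CPM in the IPs (log2 fold change −0.88, SE 0.11, adjusted p = 1.07e-14). The gene rpn-6.2 was at only 13.7 and 16.6 CPM in the inputs, from 656 and 865 counts, and at 34.5 and 36.5 CPM in the IPs, from 1058 and 1000 counts (log2 fold change 1.23, SE 0.11, adjusted p = 4.23e-26). Both IPs of rpn-6.2 were about the same and above both inputs, and its IP enrichment was 1.17 and 0.99 in the replicates. With library size as the only scaling its log2 fold change was 0.30 and did not pass the test (adjusted p = 0.105). It was the member with the lowest input level, far below the others. The sources used here do not say how reads matching both paralogs were assigned, so the split of counts within the pair is uncertain.

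Between the parts, the median IP enrichment of the cap was 0.30 log2 units above that of the core (0.22 in replicate 1 and 0.39 in replicate 2), and the median log2 fold change was 0.27 above. Leaving out rpn-6.2 gave a difference of 0.29, and leaving out rpn-6.2 and rpn-13 gave 0.28. The genes overlapped, as 12 of 14 core genes lay below the cap median and 18 of 19 cap genes above the core median, the exception being rpn-9. Members of a complex are not replicates, and no test was made between the parts. A ratio within a library is free of the scaling between libraries. Summed cap counts divided by summed core counts came to 1.09 for input 1, 1.05 for input 2, 1.41 for IP 1 and 1.503 for IP 2, a rise of 0.36 and 0.51 log2 units in replicates 1 and 2. Without rpn-6.2 and rpn-13 the mean rise was 0.31 in place of 0.44. With counts divided by the length of the gene model it was 0.40.

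**Figure D3:**
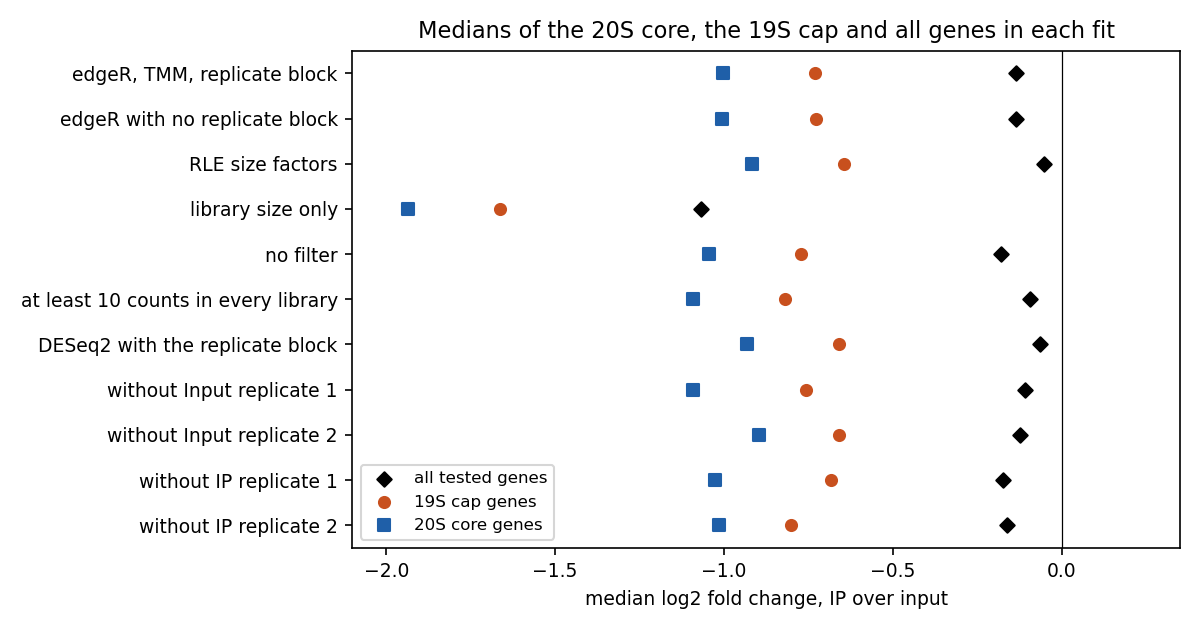
Median log2 fold change of IP over input (horizontal axis) of the 14 core genes (blue squares), the 19 cap genes (orange circles) and all tested genes (black diamonds) in each fit, listed on the vertical axis. The core lies below the cap and the cap below all genes in all 11 fits, and library size as the only scaling moves the 3 medians together, to −1.94, −1.66 and −1.07.

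The members other than rpn-6.2 had similar levels in the input. Input counts of these genes lay between 6976 and 26345, and IP counts were 2641 or more. Their mean input levels spanned 3.19-fold in CPM. Per kilobase of gene model the span was 5.96-fold, with the highest value for pas-5, an alpha ring gene, at 437 and 506 CPM in the inputs, 231 and 214 CPM in the IPs and a mean input level of 545 CPM per kilobase. The median core gene was at 349 CPM per kilobase in the inputs and 170 CPM per kilobase in the IPs, and the median cap gene at 168 and 104 CPM per kilobase. Core and cap thus stood further apart in the input than in the IP on this scale.

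Core gene models were shorter, with a median of 952.5 bases against 1498 bases for the cap. Across the 32 members IP enrichment and length had Spearman's rho = 0.28, and within the parts the sign was the opposite, with rho = −0.23 over 14 core genes and −0.38 over 18 cap genes. Length of the 3′UTR in the WBcel235 annotation gave rho = 0.11 and the input level rho = −0.32 over the 32 genes. Over the 703 genes in the input range rho was 0.19 for length, 0.25 for the 3′UTR and −0.15 for the input level. These values describe genes that share the same 4 libraries, and the part of length in the difference between core and cap was not tested. By the WBcel235 annotation 7 of the 14 core genes and 3 of the 19 cap genes were on chromosome I, and 7 cap genes and 1 core gene on chromosome III.

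**Figure D4:**
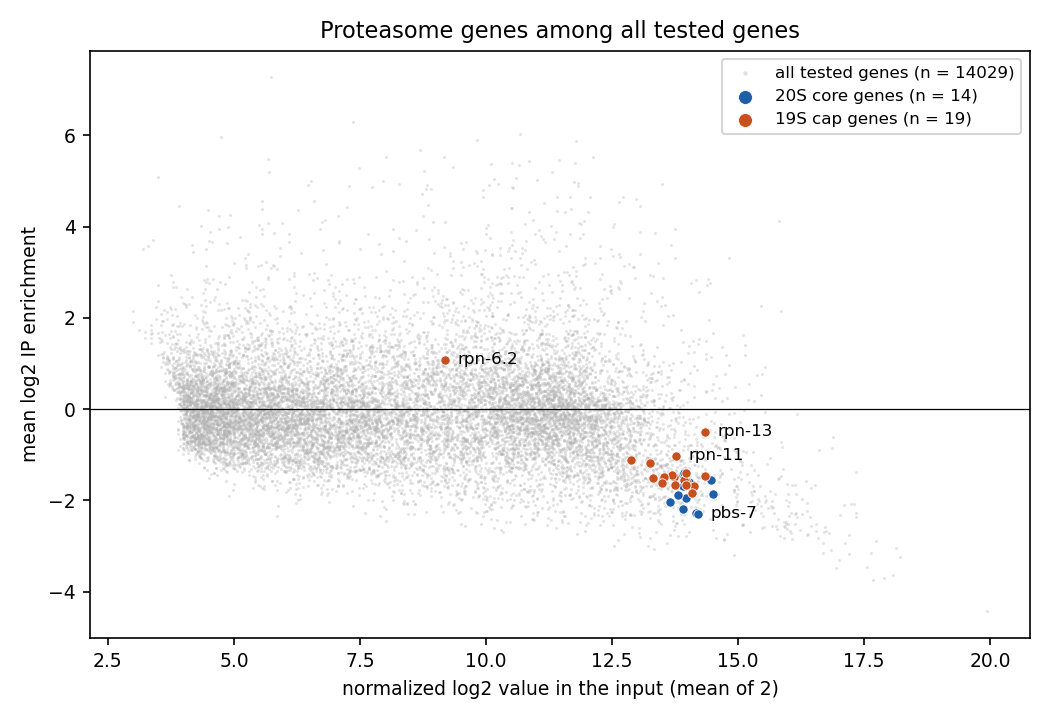
Mean log2 IP enrichment (vertical axis) against the mean normalized log2 value in the 2 inputs (horizontal axis) for 14029 tested genes (grey), 14 core genes (blue) and 19 cap genes (orange). All members but rpn-6.2 lie between 12.87 and 14.51 on the horizontal axis, and there most of them are in the lower part of the cloud.

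Genes that act with the proteasome but are outside the symbol rule were set beside the members. Of 5 cap-linked genes, 4 were depleted and 1 enriched. The lowest was dss-1, which encodes a small lid subunit also known as a partner of the worm BRCA2 protein, with 196 and 227 CPM in the inputs and 74.4 and 64.8 CPM in the IPs (log2 fold change −1.60). The highest was psme-3, for an alternative activator that docks on the core in place of the cap, with 70.7 and 82.6 CPM in the inputs and 334 and 518 CPM in the IPs (2.45). The deubiquitinase genes usp-14 (−0.60) and ubh-4 (−0.41) and the chaperone gene psmd-9 (−0.99) followed the direction of most members.

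Upstream of the proteasome the directions were mixed. Of 22 tested genes of ubiquitin supply (24 in the table), 11 were depleted and 5 enriched, with a median log2 fold change of −0.40. The lowest was ubq-2, a fusion of ubiquitin to a ribosomal protein, at 1429 and 1552 CPM in the inputs and 409 and 331 CPM in the IPs (−2.02). The highest was ubc-9, whose product conjugates the ubiquitin relative SUMO, at 375 and 462 CPM in the inputs and 820 and 1048 CPM in the IPs (1.15). Of 12 substrate delivery genes 6 were enriched and 4 depleted. Among these cdc-48.1, for the ATPase that extracts ubiquitinated proteins from complexes and membranes, was lowest at −0.62. The deubiquitinase gene atx-3 was highest at 67.4 and 72.5 CPM in the inputs and 2304 and 3138 CPM in the IPs (5.27). Of 4 genes that control proteasome genes, 3 were enriched. The highest was sel-11, for a ubiquitin ligase of the endoplasmic reticulum (1.58), and the lowest png-1, for a glycanase that processes the transcription factor SKN-1A, which was not called (−0.02, adjusted p = 0.873 with edgeR). The gene of that factor, skn-1, was enriched as well (0.99). The COP9 signalosome, a complex built like the lid, had 5 of 6 genes depleted and 1 called enriched. The lowest by IP enrichment was csn-2, with a log2 fold change of −0.59 and an IP enrichment of −1.26. By log2 fold change csn-4 was lowest (−0.89, IP enrichment −1.22). The highest was csn-6, whose direction turned with the scaling, with a log2 fold change of 0.31 and an IP enrichment of −0.17. Enriched calls with a negative IP enrichment were also those of ubc-3 and ubc-12 (2 of 5 in ubiquitin supply), rad-23 (1 of 6 in substrate delivery) and sel-1 (1 of 3 control genes).

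Genes of the protein synthesis machinery were set beside the proteasome genes. All 75 tested cytosolic ribosomal protein genes (of 76) were depleted, with a median log2 fold change of −1.58 and a median IP enrichment of −2.36. The 14 core genes lay inside the range of the ribosomal genes (−3.75 to −0.97), but 0 of the 33 members lay below their median. Of 31 aminoacyl-tRNA synthetase genes 21 were depleted and 9 enriched, with a median enrichment of −1.25 and a median log2 fold change of −0.69. Of 69 mitochondrial ribosomal protein genes 35 were depleted, 18 enriched and 16 neither, with a median enrichment of −0.59 and a median log2 fold change of −0.24, near the −0.14 of all tested genes. Of the enriched calls, 3 of 9 among the synthetases and 8 of 18 among the mitochondrial genes had a negative IP enrichment. By IP enrichment, proteasome medians (−1.79 for the core and −1.49 for the cap) thus fell between those of cytosolic ribosomal genes and those of the synthetases, with overlapping ranges. By log2 fold change the cap median (−0.73) was close to that of the synthetases (−0.69). The input level differed among these lists, with median normalized log2 values of 16.02 for the cytosolic ribosomal genes, 13.998 for the core, 13.75 for the cap, 11.86 for the synthetases and 11.12 for the mitochondrial ribosomal genes, and the part of that level in their order was not tested.

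**Figure D5:**
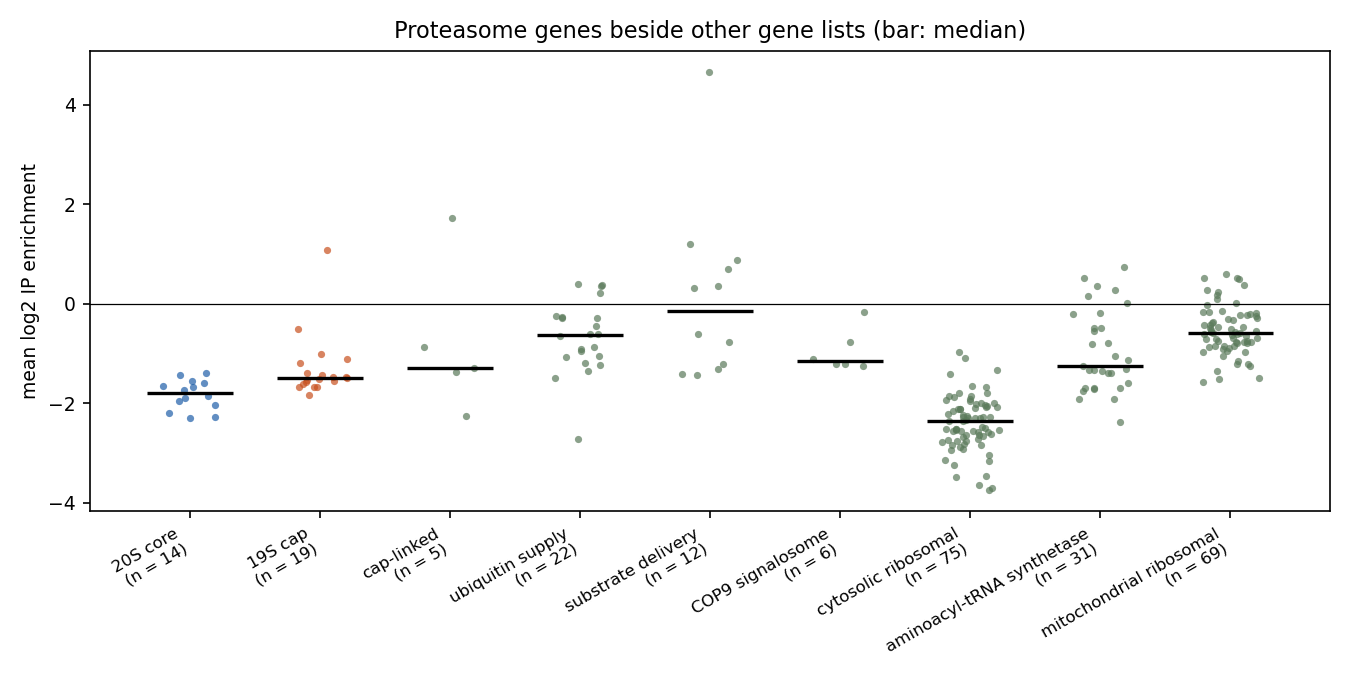
Mean log2 IP enrichment (vertical axis) of each tested gene in the 20S core, the 19S cap and 7 other gene lists, with the number of tested genes under each name and a bar at the median. The core (median −1.79) and the cap (−1.49) lie between the cytosolic ribosomal genes (−2.36) and the aminoacyl-tRNA synthetase genes (−1.25), and atx-3 is the highest point among the lists.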

How the data were processed

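Stranded mRNA sequencing gave 4 libraries, input and FLAG IP for 2 biological replicates, whose worms were grown in separate weeks. The authors deposited whole-number read counts per gene for gene models of WormBase WS220 (assembly ce10), without normalization, together with gene model lengths. The sources used here name neither the aligner nor the counter. The log2 values deposited by the authors were library-size scaled (to the mean), logged after a pseudocount of 8 was added, and quantile-normalized. The same steps applied to the counts gave 81568 values, of which 0 differed by over 1e-06.

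Symbols matched 19182 of 20392 gene IDs. Lengths of exons and 3′UTRs and overlaps came from Ensembl release 115 (WBcel235), another assembly than that of the files, so no coordinates are given. IP enrichment was the deposited-scale log2 value of an IP minus that of its input. Counts were tested with edgeR 4.0.16 (R 4.3.3) by the quasi-likelihood F test with TMM scaling, filterByExpr, replicate as a blocking factor, and adjustment after Benjamini-Hochberg at 0.05 over all tested genes. The inputs had TMM factors of 1.43 and 1.34, the IPs of 0.779 and 0.672. SE is the size of the log2 fold change before shrinkage divided by the square root of F. Enriched and depleted mean past the threshold and higher or lower in the IP. Input and IP of a number came from the same lysate, and differences between replicates in input and IP correlated with r = 0.286 across 14029 genes. The fit had 1 residual degree of freedom and infinite prior degrees of freedom, with 0.00612 as dispersion, so its p-values lean on the spread shared over genes. Between replicates, counts of the members varied by more than counting noise (chi-square per degree of freedom 8.65 for inputs and 16.9 for IPs).

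Alternatives were DESeq2 1.42.0, RLE size factors, scaling by library size only, a fit with no replicate block, no count filter, a minimum of 10 counts in every library, and fits without any one library. The fits that left out a library also had no replicate block. For the enrichment they were TMM factors, library size only, a pseudocount of 1 and single replicates. Scripts were tested on simulated data. Full values are given for the 4 highest and the 4 lowest members by IP enrichment within core and cap, the catalytic subunits, rpn-11, the ubiquitin receptors, the rpn-6 pair and members whose call differed from most. In other lists the highest and lowest genes by IP enrichment are named. Further genes named (usp-14, ubh-4, psmd-9, skn-1, let-767, nfyc-1, rpoa-49, nemt-1, K07A12.5, pgl-1, puf-5, ges-1, csn-4, ubc-3, ubc-12, rad-23 and sel-1) were chosen after their values were seen. The members and the gene lists were chosen with earlier results of these data known.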

Additional observations from a re-analysis of the deposited data

How the results depend on the processing

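The number of depleted proteasome genes was between 30 and 32, and that of core genes was 14, in each alternative fit. The number of enriched proteasome genes, all of the cap, was 2 in the edgeR fit with TMM scaling, filterByExpr and the replicate block. It was 1 with no replicate block, 1 with no filter on counts, 1 with at least 10 counts in every library, 0 with library size only, and 1 to 2 when a library was left out. The missing gene was rpn-13 in each case, and rpn-6.2 as well with library size only. With library size only rpn-13 turned to a log2 fold change of −0.60, and with TMM factors its IP enrichment turned to 0.33. The change from TMM to library size only also moved the median log2 fold change of all tested genes, from −0.14 to −1.07. Which scaling is closer to the true direction of rpn-13 was not tested. Of all tested genes, library size only gave 1670 enriched and 9333 depleted in place of 4611 and 4960, and DESeq2 gave 3236 depleted. The median IP enrichment of the core was −1.93 with library size only and −1.001 with TMM factors. That of the cap was −1.66 and −0.73 with these, −1.48 in replicate 1 alone and −1.49 in replicate 2 alone, −1.50 leaving out rpn-6.2 and −1.51 leaving out rpn-6.2 and rpn-13. The rise in the summed ratio of cap to core was 0.31 leaving out both. These choices of genes to leave out were made after seeing the data. Over all members and fits, 320 log2 fold changes kept their direction and their side of the threshold, 7 lost the call, 2 gained one and 1 reversed. The log2 fold change of rpn-11 ranged from −0.28 to −0.09 in fits other than library size only, which these 2 replicates mostly could not tell from 0.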
